A study of Mus musculus with 41 samples.

Results

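The data describe 10 genes of smooth muscle, followed through mouse endometriosis lesions grown from pieces of uterus: Acta2, Tagln, Myh11, Cnn1, Actg2, Lmod1, Smtn, Des, Synm and Oxtr. They were chosen by name, and all 10 were found among the 21249 genes of the deposited count table. The question behind the choice is how much of the muscle wall of the uterus, the myometrium, is kept in a lesion, and whether Acta2 follows it or behaves as the actin of myofibroblasts, the contractile fibroblasts of scar tissue.

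Each lesion began as a 4 mm punch of uterus glued inside the peritoneal cavity of a recipient mouse aged 12 to 16 weeks. From day 7, recipients were injected into that cavity with 1 µg interleukin-33 (IL-33), a cytokine that activates group 2 innate lymphoid cells (ILC2s), or with PBS, 3 times over 6 days. The ILC2-competent lesions given IL-33 came from 3 genotypes: C57Bl/6J (wild type, n = 4), Id2fl/fl (floxed controls, n = 4) and Nmur1iCre-eGFP (Cre controls, n = 4). The ILC2-deficient genotype, Nmur1iCre-eGFP Id2fl/fl, carries both alleles, so that Id2 is lost only in cells that use the Nmur1 driver. Deficient lesions received IL-33 (n = 4), PBS (n = 4), IL-33 with added PBS (n = 4), or ILC2s followed by IL-33, at 250000 cells (n = 4) or 120000 cells (n = 2). Wild-type mice were also given 120000 ILC2s before IL-33 (n = 3). Transplants were also crossed under IL-33, with Cre fragments placed in deficient hosts (4 libraries) and deficient fragments placed in Cre hosts (4 libraries). The labelled genotype is that of the fragment, and recipients of the other lesions were taken to share it. All lesions are whole pieces of tissue, so fewer cells of a type and less RNA per cell cannot be told apart.

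Smooth muscle contracts when myosin pulls on actin filaments that are anchored to a web of intermediate filaments. The contractile genes are switched on together by the serum response factor, which binds a DNA element called the CArG box, with its partner myocardin. Differentiated smooth muscle makes the whole set, while myofibroblasts and pericytes make Acta2 and Tagln with little Myh11. Blood vessel walls also hold smooth muscle, and skeletal muscle makes Des and Synm. The myometrium is known for its response to oxytocin, received by the Oxtr protein.

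Library totals were 28884926 to 70526624 counts, in 41 libraries. Levels are in CPM: each count was divided by its library's total after correction by the trimmed mean of M-values (TMM). Lesions differed widely in tissue: a list of 18 skeletal muscle genes summed to between 99.8 and 220477 CPM, and 14 liver genes took over 1% of the counts in 4 libraries. A list of 12 genes of uterine tissue summed to between 90.7 and 1669 CPM. It includes Krt8, Krt18, Epcam and Cdh1, which other epithelia also make. No batch is labelled. By the numbers in the library names, the Cre controls interleave with the deficient lesions given IL-33, and the groups with added PBS and 250000 ILC2s interleave with each other. The wild-type libraries carry names of another form than all others, with a number of its own for each wild-type group. Each of the remaining groups occupies its own stretch of numbers. For all of these, any effect of the stretch or form of name and the effect of the group cannot be told apart.

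Acta2 and Actg2 are close relatives, and reads could in principle be shared between them, or with Acta1, the skeletal muscle actin. The coding sequence of Acta2 is 84.4% identical to that of Actg2 and 85.4% to that of Acta1, with no shared run above 29 bases in either case. The runs shared with the cytoplasmic actins Actb and Actg1 reach 47 and 56 bases. The first 60 coding bases of 3 muscle actins are shown because they tell how far apart the transcripts are; capitals mark bases that differ from Acta2 in the alignment (GENCODE M21 transcripts, GRCm38).
Acta2: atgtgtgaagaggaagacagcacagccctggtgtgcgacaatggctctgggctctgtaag
Actg2: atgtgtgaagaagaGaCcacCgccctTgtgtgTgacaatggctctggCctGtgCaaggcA
Acta1: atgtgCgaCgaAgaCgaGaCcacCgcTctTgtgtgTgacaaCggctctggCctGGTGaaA
The library with the most Acta1, at 13612 CPM, held 7.30 CPM of Actg2, so that Acta1 reads counted as Actg2 came to no more than that there. It held 152.3 CPM of Acta2, so the same limit is much wider for Acta2. The part of Acta1 reads in the Acta2 counts was not tested.

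RefSeq promoter sequences (GRCm38.p6) were matched for 7 of the 10 genes. None held an exact CArG box in the 250 bases before the start, an element that 1.47% of 32851 promoters hold. Allowing 1 other base in its core of 6, which 8.59% of promoters satisfy on either strand, Acta2 had 2 matches, beginning 84 and 34 bases before the start, and Synm had 1, beginning 239 bases before it. Both windows are shown because these genes turned out to follow different tissues, with the matches in capitals. The windows of Des, Lmod1, Oxtr, Cnn1 and Smtn held none of these letters, which says nothing of the factor itself.
Acta2, chr19:34255374-34255623, minus strand: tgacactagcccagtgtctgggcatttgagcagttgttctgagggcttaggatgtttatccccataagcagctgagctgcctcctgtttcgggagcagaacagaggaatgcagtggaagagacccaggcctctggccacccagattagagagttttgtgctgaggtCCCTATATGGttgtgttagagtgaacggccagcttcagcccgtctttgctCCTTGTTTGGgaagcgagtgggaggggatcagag
Synm, chr7:67759743-67759992, minus strand: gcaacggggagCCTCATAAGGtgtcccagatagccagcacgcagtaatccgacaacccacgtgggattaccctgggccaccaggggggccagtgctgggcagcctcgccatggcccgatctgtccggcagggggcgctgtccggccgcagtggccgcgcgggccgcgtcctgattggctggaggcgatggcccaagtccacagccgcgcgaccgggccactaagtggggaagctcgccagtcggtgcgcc

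Smooth muscle transcripts were present in all 41 lesions, and their amount varied more from lesion to lesion than from group to group. Myh11, the heavy chain of smooth muscle myosin (GRCm38 chromosome 16, 14194535 to 14291372, protein-coding, minus strand), ranged from 83.1 to 3867 CPM, a 46.6-fold span with a median of 713 CPM. Cnn1, the actin-binding calponin of smooth muscle (chromosome 9, 22099216 to 22109630, plus strand), ranged from 1.85 to 386 CPM. Actg2, the enteric smooth muscle actin (chromosome 6, 83512905 to 83536265, minus strand), had the widest span of the 10, from 2.53 to 1633 CPM.
The actin Acta2 (chromosome 19, 34241090 to 34255590, minus strand) and the actin cross-linker transgelin, Tagln (chromosome 9, 45929619 to 45936058, minus strand), spanned 17.0-fold and 17.1-fold, from 131 to 2230.5 CPM and from 55.7 to 952 CPM. Leiomodin 1, Lmod1, which starts actin filaments (chromosome 1, 135324807 to 135368065, plus strand), ranged from 10.8 to 96.3 CPM. Smoothelin, Smtn, a filament protein of contractile smooth muscle (chromosome 11, 3517523 to 3540612, minus strand), varied least, from 82.7 to 372 CPM.
Corrected for exon length, the median level was highest for Des, at 298 CPM per kb, followed by Acta2 at 227, Actg2 at 121, Tagln at 117 and Myh11 at 93.8 CPM per kb. Smtn had 34.0, Synm 29.1, Cnn1 26.2, Lmod1 6.69 and Oxtr 1.60 CPM per kb.
Differences between groups took up 11.5% to 25.7% of the variance of log2 CPM for 9 of the genes, and 52.9% for Oxtr. These shares are not corrected for the number of groups. With 11 small groups, part of each share arises even where groups do not differ.

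**Figure D1:**
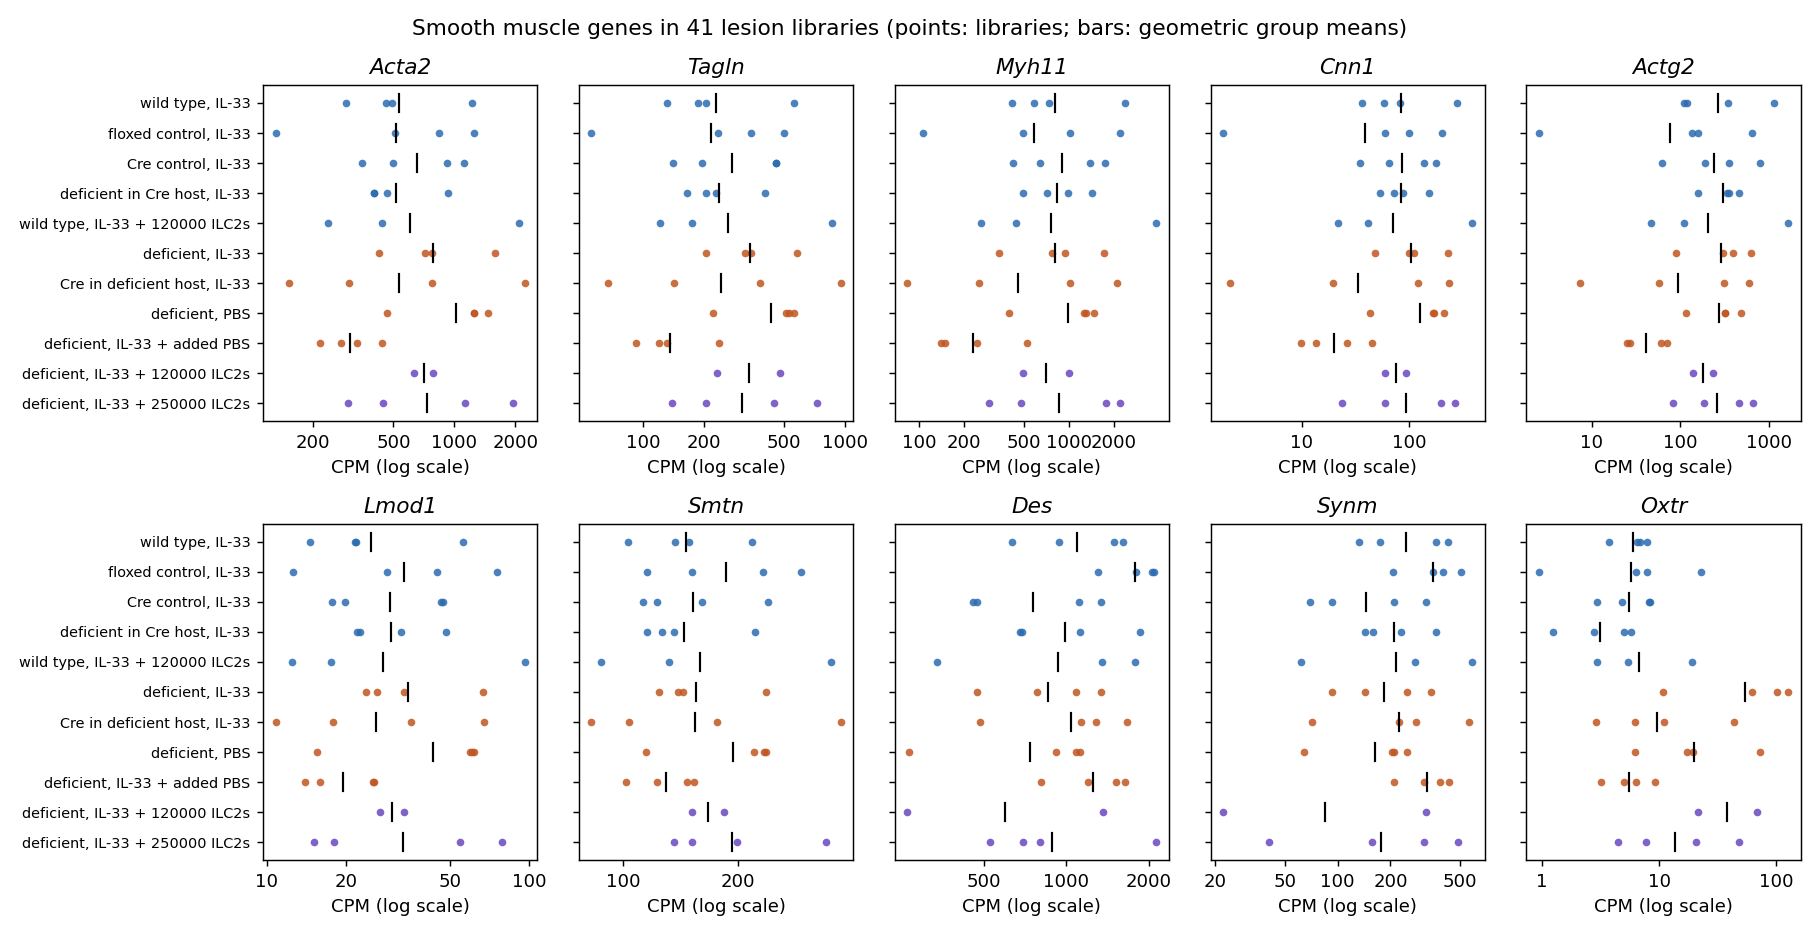
Level of each of the 10 genes in CPM on a log axis, 1 point per library and a bar at the geometric mean of each of the 11 groups, coloured blue for ILC2-competent recipients, orange for deficient recipients without transferred ILC2s and purple for deficient recipients given ILC2s. Single groups span up to 25.3-fold in Myh11 (83.1 to 2099.7 CPM in Cre fragments of deficient recipients), while Oxtr is highest in the deficient group given IL-33.

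Group means of Myh11 followed no order by genotype. The lowest mean was 265 ± 183 CPM (SD, n = 4) in deficient lesions with added PBS, and the highest was 1522 ± 2033 CPM (n = 3) in wild-type lesions given 120000 ILC2s, where 1 library had 3867 CPM and the other two 257 and 443 CPM. Between these lay deficient lesions given 120000 ILC2s (752 ± 360, n = 2), Cre fragments in deficient recipients (865 ± 920), deficient fragments in Cre recipients (907 ± 407), deficient lesions given IL-33 (942 ± 575), floxed controls (959 ± 916), wild type (1034 ± 915), Cre controls (1056 ± 627), deficient lesions given PBS (1112 ± 482) and those given 250000 ILC2s (1187 ± 946 CPM, n = 4 each). Apart from the step above the lowest group, no 2 neighbours in this order differed by more than the larger of their SDs.
In the test for a difference among any of the 11 groups (edgeR quasi-likelihood, Benjamini-Hochberg adjusted over all genes, called under 0.05), 1 of the 10 genes was called against 21.3% of all genes tested. That gene was Oxtr (adjusted p = 0.00395), and the adjusted p of the other 9 ran from 0.558 to 0.895 in the same edgeR test.

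A set of 7 of the genes was high or low together from lesion to lesion. Acta2, Tagln, Myh11, Cnn1, Actg2, Lmod1 and Smtn had Spearman correlations of 0.722 to 0.982 over the 21 pairs they form, and of 0.808 to 0.981 within groups; these describe 41 libraries that share a scale of counts per total. Acta2 tracked Myh11 closely (Pearson r = 0.945, Spearman rho = 0.938, n = 41, permutation p = 1e-05 for each, adjusted 2.4e-05 over 12 relations). That p is the smallest that 100000 permutations can give. The relation was r = 0.931 without the 2 libraries farthest from the median of Myh11, and r = 0.975 within groups.
The genes most like Myh11 over the 41 libraries, members aside, were Pgm5, Myl9, Kcnmb1, Optc, Csrp1, Flna, Ppp1r14a, Mylk, Carmn and Pygb, with rho from 0.945 to 0.969. Myl9 and Mylk encode the regulatory light chain of myosin and the kinase that activates it, and Kcnmb1 encodes a subunit of the large-conductance potassium channel of smooth muscle. Those most like Acta2 were Myl9, Carmn, Mmp17, Flna, Tgfb1i1, Pgbd5, Csrp1, Slc8a2, Myocd and Mrvi1, with rho from 0.944 to 0.977. Myocd encodes myocardin. No gene of the list of 18 for myofibroblasts and matrix stood among either set of 10. That says little, since each set of 10 was taken from a table of 21249 genes.
Acta2 showed no positive relation with matrix transcripts: with the summed CPM of the matrix list it had r = -0.268 (permutation p = 0.0885, adjusted 0.133) and rho = -0.307 (p = 0.0514, adjusted 0.0685), n = 41. Without the 2 libraries farthest from the median of that list r was -0.461, and within groups it was -0.244. With the summed CPM of the 15 pericyte and vascular wall genes, a list whose gene Vtn is also made by liver, Acta2 had rho = 0.403 (permutation p = 0.00975, adjusted 0.0146) and r = 0.175 (p = 0.276, adjusted 0.368), n = 41, with r = 0.363 without 2 libraries and 0.205 within groups.

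Cnn1 and Actg2 were almost missing from 2 lesions that still held Acta2. These were picked out after their values were seen. Replicate 3 of the floxed controls had 1.85 CPM of Cnn1 and 2.53 CPM of Actg2, and replicate 1 of the Cre fragments in deficient recipients had 2.14 and 7.30 CPM. In the other 39 libraries the lowest values were 9.84 CPM for Cnn1 and 24.7 CPM for Actg2.
Both libraries were also the lowest in Myh11 (106 and 83.1 CPM), in Acta2 (131 and 152.3 CPM) and in Tagln (55.7 and 67.2 CPM), but lay less far below the others in these. Against the median of the other 39, they kept 2.27% and 2.63% of Cnn1, 14.4% and 11.3% of Myh11, 25.6% and 29.8% of Acta2, and 76.5% and 68.6% of Smtn. Des stood at 117% and 150% of that median.
Their uterine tissue list summed to 90.7 and 136 CPM, against a median of 487 CPM over all libraries, and the uterine Hox gene Hoxa11 had 0.351 and 0.0766 CPM against a median of 17.2. Foxa2, a gene of uterine glands, had no count in either, as in 4 further libraries. Pgr, the progesterone receptor, had 1.499 and 21.2 CPM against a median of 98.4. The part of missing uterine tissue in these values was not tested.

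Des and Synm, the intermediate filament genes of the set, were not correlated by themselves with the contractile genes. Desmin, Des (chromosome 1, 75360329 to 75368579, plus strand), links the contractile apparatus of every muscle type, and synemin, Synm (chromosome 7, 67730160 to 67759742, minus strand), joins desmin filaments to the membrane. Des ranged from 262 to 2137 CPM and Synm from 22.2 to 585 CPM. Their rho with each other was 0.940, whereas the 14 pairs they form with the 7 contractile genes lay between -0.091 and 0.125.
Both were higher where the 18 skeletal muscle genes were. With the summed CPM of that list Des had r = 0.724 and rho = 0.852, and Synm r = 0.813 and rho = 0.786 (n = 41, permutation p = 1e-05 for each, adjusted 2.4e-05, log2 scale). Without the 2 libraries farthest from the median of the list r was 0.705 for Des and 0.697 for Synm, and within groups it was 0.698 and 0.783. With Myh11, Des had r = -0.036 (permutation p = 0.820, adjusted 0.895) and rho = -0.044 (p = 0.784, adjusted 0.941), and r was 0.058 without 2 libraries and 0.104 within groups.
In a linear fit on CPM, Myh11 alone described 0.932% of the variance of Des and skeletal muscle alone 64.4%, and the 2 together described 87.6%. For Synm these shares were 3.63%, 54.2% and 84.97%. In the fit with both, Des and Synm each rose with Myh11 at a given level of skeletal muscle. Lmod1 by contrast gave 88.1% for Myh11 alone, 12.1% for skeletal muscle alone and 88.5% for both, and Acta2 gave 81.6%, 18.9% and 82.0%.

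**Figure D2:**
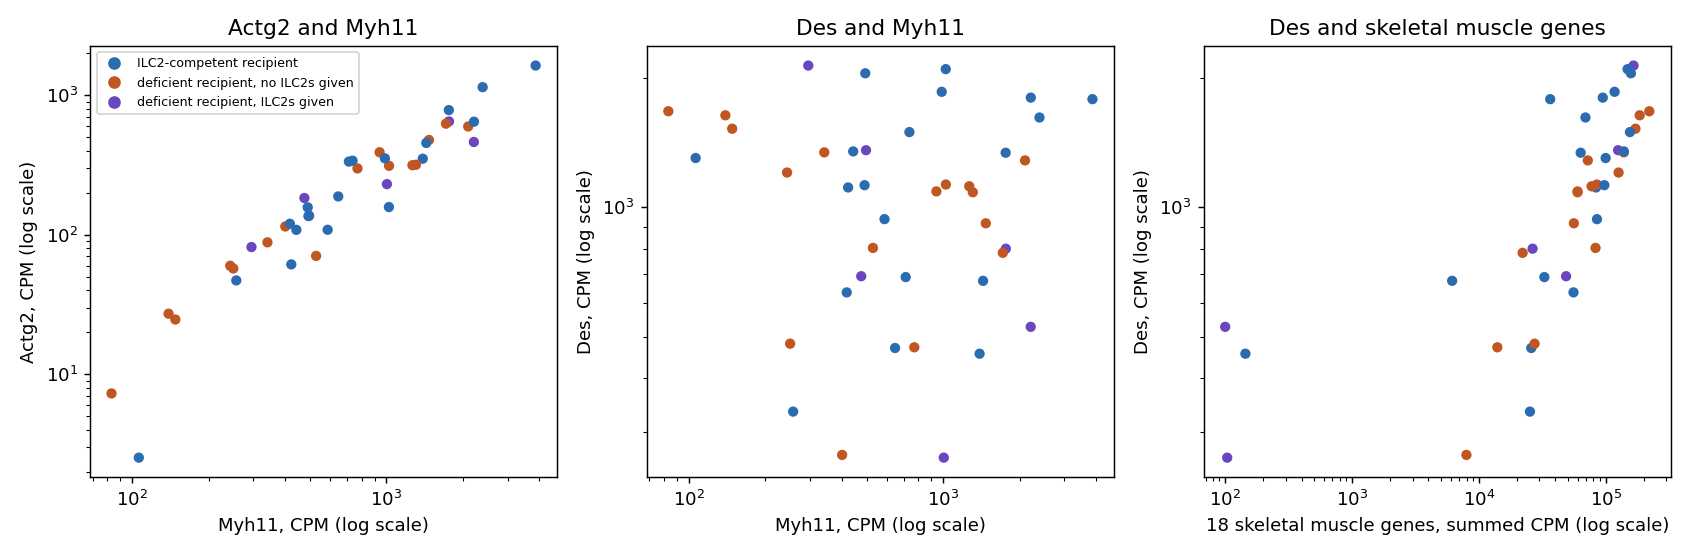
Each point is 1 of 41 libraries, with all axes in CPM on log scales and colours by recipient: Actg2 against Myh11 (left), Des against Myh11 (middle) and Des against the summed 18 skeletal muscle genes (right). Actg2 follows Myh11, with 2 points far below the rest at 2.53 and 7.30 CPM, while Des follows the skeletal list and keeps 262 to 527 CPM in the 3 libraries at its left edge.

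Skeletal muscle was nearly absent from 3 lesions, which show Des and Synm without it. These were the third Cre control, the first of the deficient lesions given 120000 ILC2s and the fourth of those given 250000, where the list took 0.0131%, 0.0117% and 0.0124% of the counts. Des was 456, 262 and 527 CPM in them, and Synm 69.6, 22.2 and 40.7 CPM. Myh11 was 1391, 1006 and 2210.5 CPM, above the median in all 3.
Des per Myh11 was 0.238 to 0.328 there, below the 0.454 to 20.1 (median 1.48) of the other 38 libraries, and Synm per Myh11 was 0.0184 to 0.05002 against 0.0837 to 6.72. For Actg2 per Myh11, by comparison, the same 3 libraries had 0.209 to 0.252, inside the 0.0238 to 0.477 of the others. One of the 3, the Cre control, was also a library with liver transcripts, which took 5.62% of its counts.

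Deficient and competent lesions under IL-33 differed in 1 of the 10 genes, where 11% of all genes tested were called, 6.24% higher and 4.72% lower. The contractile genes showed no difference beyond their spread. Myh11 was 341 to 1717 CPM in the 4 deficient lesions and 106 to 2393 CPM (median 692) in the 12 competent ones, so that the groups overlapped widely, with a log2 difference of -0.11 ± 0.72 (SE, edgeR adjusted p = 0.950). Acta2 was 423 to 1589 CPM against 131 to 1248 CPM (log2 difference 0.38 ± 0.57, edgeR adjusted p = 0.727), and Des had a log2 difference of -0.40 ± 0.45 (edgeR adjusted p = 0.634), with the skeletal muscle list at 13969.8 to 138924 CPM in the deficient and 144 to 157877 CPM in the competent lesions.
The median log2 difference over the 10 genes was 0.13, against -0.01 over all genes. None of 26 further smooth muscle genes was called, and their median was 0.01. Against the Cre controls alone 1 of the 26 was called, where 3.83% of all genes were: Kcnma1, the pore of the large-conductance potassium channel, at 1.01 ± 0.30 (log2 difference, edgeR adjusted p = 0.0497).

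Oxtr, the oxytocin receptor (chromosome 6, 112473683 to 112489943, minus strand), was the exception. Its level was 62.2, 100.6, 10.7 and 125.8 CPM in the deficient lesions given IL-33, and 0.937 to 22.8 CPM (median 6.66) in the 12 competent ones. Every competent value was exceeded in 3 of the 4 deficient lesions, and the fourth lay inside the competent range. The log2 difference was 3.40 ± 0.63, a 10.5-fold higher level (edgeR adjusted p = 0.000858).
The Cre controls, numbered among the deficient libraries, held 8.31, 2.94, 4.799 and 8.20 CPM. Set against them only, Oxtr differed by 3.63 ± 0.94 on the log2 scale (edgeR adjusted p = 0.0279), where 3.83% of all genes were called, 1.63% higher and 2.2% lower.
Genes of the uterine tissue list moved in the same direction without being called: they summed to 490 to 1622 CPM in the deficient lesions and 90.7 to 925 CPM in the competent ones, and 0 of 12 passed the edgeR test, with a median log2 difference of 0.65. Liver transcripts, from which 0 of 14 genes passed, took 2.48% of the counts in 1 of the deficient and 5.62% and 5.74% in 2 of the competent lesions, and without the libraries that held them Oxtr differed by 3.13 (edgeR adjusted p = 0.0086). Over all 41 libraries Oxtr rose with the sum of the uterine list (r = 0.766, rho = 0.726, permutation p = 1e-05, adjusted 2.4e-05). That relation had r = 0.706 without 2 libraries and 0.731 within groups. With Myh11 the relation was looser (r = 0.444, permutation p = 0.00353, adjusted 0.00605; rho = 0.462, p = 0.00254, adjusted 0.00435; r = 0.339 without 2 libraries and 0.596 within groups). The part of the amount or state of uterine tissue in the difference of Oxtr was not tested.

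Other deficient lesions did not share 1 level of Oxtr. With PBS alone it was 71.9, 19.5, 6.16 and 17.4 CPM, and after 120000 ILC2s 21.4 and 67.9 CPM. With IL-33 and added PBS, a group that differs from the IL-33 group by label only in that addition, it was 5.05, 3.20, 9.16 and 6.37 CPM, all within the competent range; this group comes from another run of library names and its uterine list summed to 143 to 510 CPM. After 250000 ILC2s it was 20.7, 4.41, 7.66 and 47.9 CPM. Ordered by mean, the groups ran from 3.68 CPM in deficient fragments of Cre recipients to 74.9 CPM in deficient lesions given IL-33, and no neighbours in that order differed by more than the larger of their SDs.

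**Figure D3:**
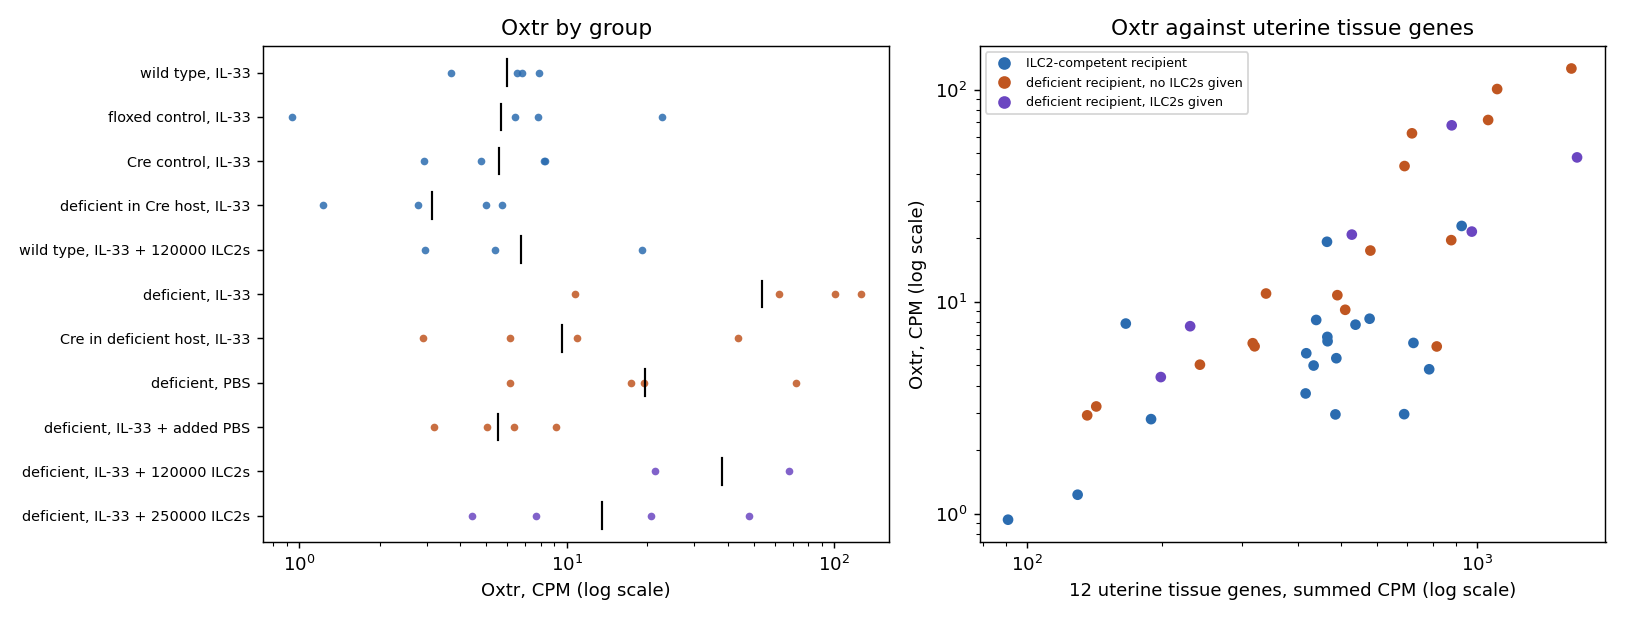
Left, Oxtr in CPM on a log axis for each library of the 11 groups, with a bar at the geometric mean; right, Oxtr against the summed CPM of 12 uterine tissue genes, both on log axes. Of the 4 deficient libraries given IL-33, 3 lie at 62.2 to 125.8 CPM, and those with added PBS lie at 3.20 to 9.16 CPM. Libraries with a higher sum of the uterine list hold more Oxtr.

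In the crossed transplants Oxtr was higher in deficient than in Cre recipients. Deficient fragments had 62.2, 100.6, 10.7 and 125.8 CPM in deficient recipients but 1.23, 2.79, 5.71 and 4.998 CPM in Cre recipients. Cre fragments had 2.91, 10.9, 6.15 and 43.6 CPM in deficient recipients and 8.31, 2.94, 4.799 and 8.20 CPM in Cre recipients. All 8 libraries from Cre recipients lay below 6 of the 8 from deficient recipients, with a log2 difference of 2.87 ± 0.65 (edgeR adjusted p = 0.00378), where 11.3% of all genes were called, 5.02% higher and 6.29% lower. Without the Cre fragment at 43.6 CPM the log2 difference was 2.24 (edgeR adjusted p = 0.0164).
The Cre fragments overlapped more than the deficient ones did. The recipient effect was larger in deficient fragments by 2.95 ± 1.23 on the log2 scale, which did not pass the test (edgeR adjusted p = 0.251, where 0.414% of all genes were called, 0.0329% higher). Fragment genotype gave 0.76 ± 0.61 (edgeR adjusted p = 0.9997, where 0.00471% were called). The uterine list summed to 136 to 1622 CPM in deficient recipients and 130 to 783 CPM in Cre recipients, with 0 of 12 genes called.
This comparison uses the same deficient and Cre-control libraries as the one above, so the 2 differences of Oxtr are not independent. The other 9 genes did not pass the recipient test, with Myh11 at -0.12 ± 0.62 and Acta2 at 0.47 ± 0.50 on the log2 scale (edgeR adjusted p = 0.933 and 0.608).

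Among 10 genes for uterotonic receptors and coupling, 2 rose in deficient against competent lesions, where 11% of all genes were called. Gja1, the connexin of the gap junctions through which myometrial cells couple, was 135.1 to 180.1 CPM in the deficient lesions and 66.2 to 144 CPM in the competent ones (log2 difference 0.78 ± 0.21, edgeR adjusted p = 0.0138). Ptgs2, the inducible prostaglandin synthase, was 6.59 to 20.2 CPM against 2.84 to 10.4 CPM (1.24 ± 0.37, edgeR adjusted p = 0.0269). Neither passed against the Cre controls alone or between recipients, where 0 of the 10 were called in each case. Of the 18 myofibroblast and matrix genes 2 rose in deficient against competent lesions, the cadherin Cdh11 at 0.81 ± 0.23 and the lysyl oxidase relative Loxl2 at 0.72 ± 0.22 (log2 differences, edgeR adjusted p = 0.0225 and 0.0324). In the same comparison Ndufa4l2, 1 of 15 pericyte and vascular wall genes, fell by 1.30 ± 0.20 (edgeR adjusted p = 0.000187), and Kdr, a receptor of vascular endothelial growth factor and 1 of 8 endothelial genes, rose by 0.45 (edgeR adjusted p = 0.0411). Against the Cre controls alone Cdh11, Loxl2 and Kdr did not pass, Ndufa4l2 fell by 1.27 ± 0.23 and the growth factor gene Tgfb1 of the matrix list fell by 0.75 ± 0.21 (edgeR adjusted p = 0.00177 and 0.0413).
Between recipients, where 11.3% of all genes were called, 1 of the 26 smooth muscle partners passed: Kcnma1 at 64.6 to 177 CPM in deficient recipients and 47.1 to 74.2 CPM in Cre recipients (1.11 ± 0.21, edgeR adjusted p = 0.000829). Of the 18 matrix genes 2 rose and 3 fell, led by Fn1, fibronectin, at -1.04 ± 0.22, Fap, a protease of activated fibroblasts, at 0.97 ± 0.26, and Lox, a collagen cross-linking enzyme, at -0.65 ± 0.16 (log2 differences, edgeR adjusted p = 0.00203, 0.0145 and 0.00881). Fn1 was 3412 to 6705 CPM in deficient and 6733 to 16007 CPM in Cre recipients. Competent lesions outside this comparison held 3394 to 8048 CPM in floxed controls and 8161 to 10833 CPM in wild type. Fn1 was not called in deficient against competent lesions or against the Cre controls alone. Of the 15 pericyte and vascular wall genes Ndufa4l2 fell by 1.22 ± 0.16 (edgeR adjusted p = 1.3e-05), and of 8 endothelial genes Kdr, Tek and Cdh5 rose by 0.62, 0.48 and 0.45 (edgeR adjusted p = 0.00182, 0.0341 and 0.0165).

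The ratio of Acta2 to Myh11 counts sets the actin that myofibroblasts share against the myosin of differentiated smooth muscle. It differed between deficient and Cre recipients. In deficient recipients Acta2 counts per Myh11 count were 0.761, 0.925, 1.24 and 1.01 in deficient fragments, and 1.83, 0.757, 1.21 and 1.06 in Cre fragments. In Cre recipients they were 0.470, 0.562, 0.815 and 0.651 in deficient fragments, and 0.771, 0.825, 0.801 and 0.525 in Cre fragments. The ratio exceeded every Cre-recipient value in 6 of the 8 libraries from deficient recipients.
On the log2 scale the means were 0.08 ± 0.42 and -0.59 ± 0.32 (SD, n = 8 each), a difference of 0.67 or 1.60-fold (two-sided exact permutation p = 0.00249, adjusted 0.0174 over 7 comparisons of this ratio). The difference was 0.66 within deficient fragments and 0.68 within Cre fragments (n = 4 against 4 each). Fragment genotype gave -0.24 (exact permutation p = 0.355, adjusted 0.520).
Myh11 itself was 83.1 to 2099.7 CPM in deficient recipients and 423 to 1762 CPM in Cre recipients. Tagln per Myh11 had a mean log2 ratio of -1.09 ± 0.44 in deficient and -1.77 ± 0.19 in Cre recipients (SD, n = 8 each), a gap wider than either SD. For Smtn (-1.98 ± 1.06 and -2.55 ± 0.55), Lmod1 (-4.34 ± 0.93 and -4.88 ± 0.24), Cnn1 (-3.37 ± 0.81 and -3.36 ± 0.13) and Actg2 (-1.90 ± 0.71 and -1.70 ± 0.53) the gap was smaller than the larger SD; these 5 ratios are given with no test. With the mean of Myh11, Cnn1, Actg2, Lmod1 and Smtn as denominator, the difference between recipients was 0.49.

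The ratio was also lower where Myh11 was higher (r = -0.721, rho = -0.645, n = 41, permutation p = 1e-05 for each, adjusted 2.4e-05). It had r = -0.670 without 2 libraries and -0.791 within groups. The 2 measures share the Myh11 count, and log2 Acta2 varied less than log2 Myh11 (SD 1.02 and 1.31). That alone gives a negative relation, which the permutation does not allow for. Within groups, log2 Acta2 rose by 0.771 for each unit of log2 Myh11. After subtraction of that slope, an adjustment chosen after the data were seen, the difference between recipients was 0.56 (exact permutation p adjusted over the comparisons = 0.00761).
The matrix list had no visible relation with the ratio (r = -0.019, permutation p = 0.904, adjusted 0.904; rho = -0.006, p = 0.971, adjusted 0.993; r = 0.123 without 2 libraries and 0.196 within groups). Its sum was 18589 to 40834 CPM in deficient recipients and 30685 to 57238 CPM in Cre recipients. Acta2 counts exceeded Myh11 counts in 13 of the 41 libraries. Of these, 2 were among the 12 competent ones, both of them floxed controls. A further 5 were among the 8 from deficient recipients and 0 among the 8 from Cre recipients. The counts are not corrected for exon length, 2196 bases for Acta2 and 7599 for Myh11. Equal counts therefore do not mark equal numbers of transcripts.

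**Figure D4:**
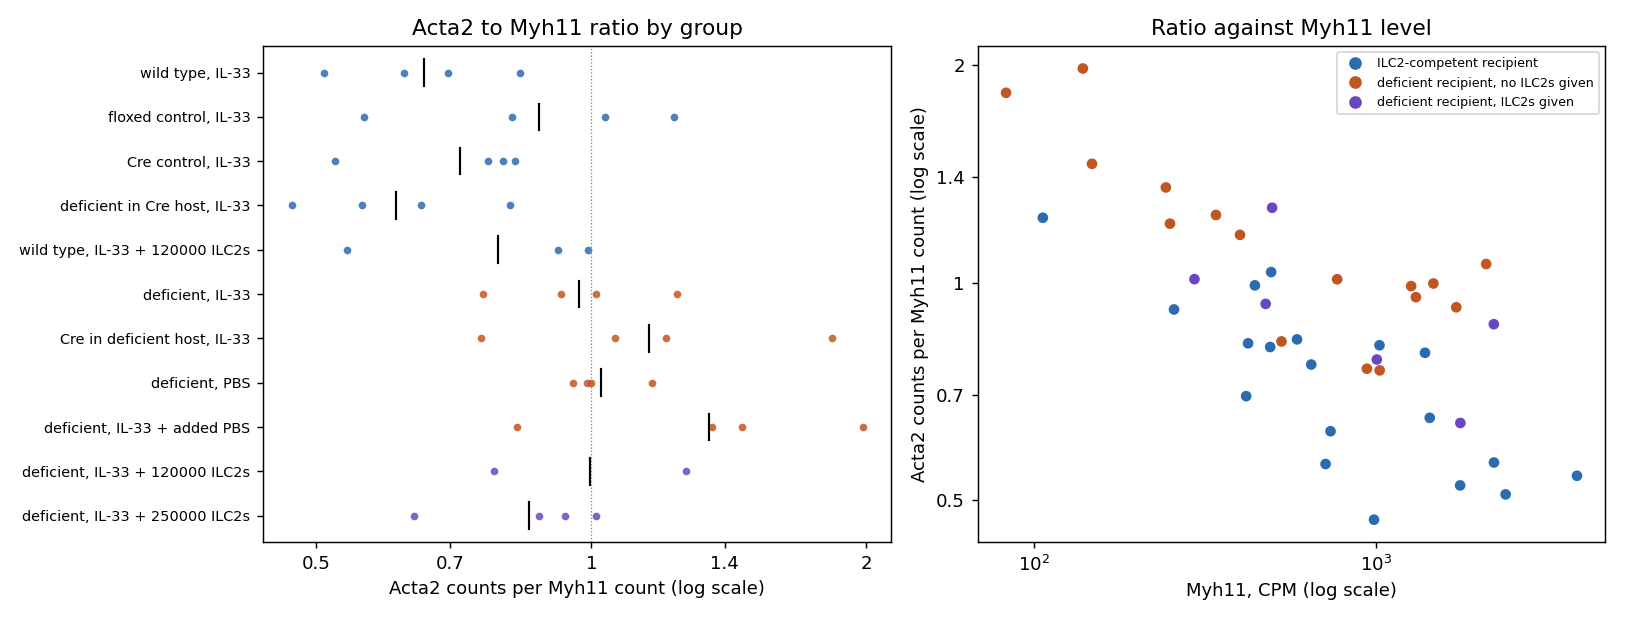
Left, Acta2 counts per Myh11 count on a log axis for each library of the 11 groups, with a bar at the geometric mean and a dotted line at 1; right, the same ratio against Myh11 in CPM, both on log axes. Libraries from Cre recipients stay between 0.470 and 0.825, those from deficient recipients given IL-33 without added PBS or ILC2s reach 1.83, and the ratio is lower where Myh11 is higher.

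Between deficient and competent lesions under IL-33 the ratio did not pass the test. It was 0.761 to 1.24 in the 4 deficient libraries and 0.510 to 1.23 (median 0.786) in the 12 competent ones, with log2 means of -0.04 ± 0.29 and -0.42 ± 0.38 (exact permutation p = 0.0907, adjusted 0.267). Against Cre controls alone the difference was 0.43 (exact permutation p adjusted = 0.267). With the slope on Myh11 subtracted, as above, the difference was 0.40 and passed (exact permutation p adjusted = 0.0192). With the mean of the 5 contractile genes as denominator it was 0.13, with no test.

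None of the 10 genes was called for IL-33 against PBS in deficient mice, where edgeR called 2 of 21249 genes (0.00941%; 1436 had an unadjusted p under 0.05) and DESeq2 called 18. Myh11 was 1267 to 1472 CPM in 3 of the 4 PBS lesions and 401 CPM in the fourth, against 341 to 1717 CPM with IL-33 (log2 difference -0.24 ± 0.87, edgeR adjusted p = 0.992). Acta2 gave -0.34 ± 0.71 and Oxtr 1.38 ± 0.86 (edgeR adjusted p = 0.985 and 0.863). The ratio of Acta2 to Myh11 was 0.998, 0.990, 1.17 and 0.956 with PBS (difference -0.08, exact permutation p = 0.657, adjusted 0.733).

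Transfer of 250000 ILC2s against added PBS gave the largest differences among the contractile genes, none of which passed after adjustment. Myh11 was 1765, 476, 295 and 2210.5 CPM after transfer and 139, 148.1, 529.8 and 243 CPM with added PBS, so that 2 of the 4 treated lesions lay inside the range of the controls. Its log2 difference was 2.16 ± 0.91, and Actg2 gave 2.91 ± 1.17, Cnn1 2.52 ± 1.07 and Acta2 1.59 ± 0.73 (edgeR adjusted p = 0.567, 0.567, 0.568 and 0.570). These 4 of the 10 genes had an unadjusted p under 0.05, and so did 1849 of all 21249 genes. In this comparison edgeR called 0 genes (0%) and DESeq2 called 14, with none of the 10 among them.
The skeletal muscle list moved the other way, at 99.8 to 165623 CPM after transfer and 83069 to 185197 CPM with added PBS, and the uterine list was 198 to 1669 CPM against 143 to 510 CPM. The part of tissue make-up in these differences was not tested. The ratio of Acta2 to Myh11 was 0.640, 0.935, 1.01 and 0.877 after transfer and 1.98, 1.46, 0.830 and 1.36 with added PBS, a log2 difference of -0.65 (exact permutation p = 0.114, adjusted 0.267; the smallest p that 4 against 4 allows is 0.0286).

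None of the 10 genes was called after transfer of 120000 ILC2s in deficient or in wild-type mice. In deficient mice (n = 2 against 4) edgeR called 0 genes (0%; 400 had an unadjusted p under 0.05) and DESeq2 9, and Myh11 gave -0.33 ± 1.08 (edgeR adjusted p = 1). In wild-type mice (n = 3 against 4) edgeR called 0 genes (0%; 841 had an unadjusted p under 0.05) and DESeq2 3, and Myh11 gave 0.56 ± 0.94 (edgeR adjusted p = 0.999). The ratio of Acta2 to Myh11 was 0.784 and 1.27 in the treated deficient lesions, and 0.992, 0.541 and 0.919 in the treated wild-type ones, of which 2 lay above the 0.510 to 0.835 of wild type without transfer (exact permutation p = 0.733 and 0.371, adjusted 0.733 and 0.520; 2 against 4 cannot go below 0.0667).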

How the data were processed

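Bulk RNA of whole lesions was sequenced (Norgen RNA kit on snap-frozen tissue and NEBNext UltraExpress libraries, per the labels' protocols). The values used are raw counts per gene as deposited by the authors. Trimmomatic, STAR, HTSeq, edgeR and limma with GRCm38 are named in the submitters' processing notes, without versions. Annotation and strandedness of the counting were not given in the sources used here, so overlapping antisense genes cannot be separated. The lowest gene total was 411 counts, so genes with fewer had been left out.

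Counts were scaled by TMM and fitted with edgeR 4.0.16 (R 4.3.3; quasi-likelihood F-test, robust) with a mean for each of 11 groups and 1 estimate of spread shared by the 41 libraries; p-values were adjusted over 21249 genes and called under 0.05. A standard error is the absolute log2 difference divided by the square root of F. Log2 CPM used a prior count of 2. The Acta2 to Myh11 ratio was taken on counts and tested by exact permutation in 7 comparisons; correlations used 100000 permutations on log2 values. Only the edgeR comparison of deficient against competent lesions was tested on simulated data.

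The members and lists were chosen with earlier results of these data known. All members are named; from each list at most the 3 called genes with the largest change are named, and the 10 genes most like Myh11 and Acta2 by Spearman correlation. Alternatives were DESeq2 1.42.0, other size factors, a low-count filter, a replicate block, leaving out liver-containing libraries or single libraries, the 2 libraries lowest in Cnn1, a skeletal muscle covariate and fitting only the compared groups. No 2 libraries of a group were near-copies: over 58 pairs the lowest chi-square, per degree of freedom, was 20.4. The labels do not say that replicates are separate animals, so p-values reflect only how these samples vary, and that spread may be technical.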

Additional observations from a re-analysis of the deposited data

Results flagged for a closer look

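Of 99 sets of 4 libraries examined (10 genes and the Acta2 to Myh11 ratio in 9 groups of 4), 9 had a library far from the other three by Dixon's criterion, which chance gives in about 1 of 20 sets; the genes are correlated, so 1 library gives several flags. Replicate 3 of the deficient lesions given PBS was low in 8 of the 10 genes. It held 467 CPM of Acta2 (the others 1250 to 1469), 401 of Myh11 (1267 to 1472), 43.4 of Cnn1 (167 to 208) and 222 of Tagln (511 to 560). It also held 265 CPM of Des (918 to 1119), 15.5 of Lmod1 (59.5 to 61.8), 115 of Smtn (221 to 238) and 64.3 of Synm (205 or more). Its skeletal muscle list summed to 7972 CPM and its uterine list to 321 CPM, the lowest of that group for each. The ratio of Acta2 to Myh11 in replicate 4 of the Cre controls, at -0.93 on the log2 scale, stood below the -0.38 to -0.28 of the other three.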

How the results depend on the processing

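The number of the 10 genes called, in 9 comparisons, was the same under all 206 alternatives, and no single gene changed its call under 1580. Oxtr was called in deficient against competent lesions in all 25 alternatives (log2 difference 3.05 to 3.76, adjusted p 2.21e-05 to 0.0279). Between recipients it was called in all 24 (2.24, without replicate 4 of the Cre fragments in deficient recipients, to 3.05, adjusted p 2.48e-05 to 0.0164). No alternative took the deficient lesions with IL-33 and added PBS as the deficient group. Their Oxtr, 3.20 to 9.16 CPM, lay within the competent 0.937 to 22.8 CPM. The ratio difference between recipients passed in all 16 fits that left out 1 library (0.56 to 0.74, adjusted p 0.0087 to 0.0381). One ratio result changed its call: with the slope of Acta2 on Myh11 subtracted, chosen after seeing the data, deficient against competent lesions gave 0.40 (adjusted p 0.0192; adjusted p 0.118 to 0.391 with 1 library left out of the unadjusted ratio), and with 5 contractile genes as denominator 0.13; the cause was not tested. With a replicate block Oxtr gave 3.19 in deficient against competent lesions and 2.57 between recipients. The members called were then 1, 0 and 1 in deficient against competent, IL-33 against PBS and recipient genotype. Over 191 same-numbered pairs from different groups, deviations correlated at 0.0094 on average, and 65 pairs exceeded 0.1. An average over all groups cannot exclude pairing within a single comparison, which was not tested. Counts over all genes moved more: 2329 in deficient against competent became 1433 or 698 without replicate 2 or 4 of the deficient group and 813 against Cre controls alone, 4536 among any groups became 6852 with DESeq2, and the 88 of the interaction became 0 to 342. For IL-33, the ILC2 transfers and fragment genotype they lay between 0 and 18. Leaving out the 2 libraries lowest in Cnn1, a choice made from a member's level, changed no call of the 10 genes, and the ratio difference between recipients was then 0.56 (adjusted p 0.0381). Depth limits genes near 1 CPM, such as Oxtr in its lowest libraries (40 counts in the lowest).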
